A study of Mus musculus with 8 samples.

Results

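The cytochrome P450 (Cyp), UDP-glucuronosyltransferase (Ugt) and cytosolic sulfotransferase (Sult) genes were taken by symbol from whole-colon expression arrays of mice with acute graft-versus-host disease. The rule kept symbols of the Cyp1 to Cyp4 families, of Ugt1a, Ugt2a and Ugt2b, and of Sult1 to Sult5, with 1 probe set for each gene. It found 107 genes among 19505 named genes, of which 80 were P450 genes, 8 were Ugt2 genes and 19 were sulfotransferase genes. The P450 count includes Cyp2d37-ps, Cyp4b1-ps2 and Cyp4f41-ps, whose symbols mark pseudogenes, and they stay in the group counts and medians below. The rule also covers Ugt1a, but no Ugt1a symbol was matched and those genes were not analysed here. Each of the 107 genes had a single probe set, so no choice between probe sets was made.

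All 8 mice were wild-type BALB/c recipients that were lethally irradiated and transplanted with bone marrow and T cells from C57BL/6 donors on day 0. In this model the donor T cells attack recipient tissues, among them the gut. The 4 tested mice were given oral hBD-2, human beta-defensin 2, an antimicrobial peptide of epithelia, at 1.2 mg/kg over days 0 to 7, and the 4 controls were given PBS over the same days. The colon was collected on day 7 and each mouse had 1 array, so that irradiation, transplant and disease were shared by both groups and no healthy colon stands beside them here. Values are log2 expression values after RMA normalization, the number of arrays limits their precision, and differences are hBD-2 minus PBS.

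P450 enzymes are haem proteins of the endoplasmic reticulum that oxidise drugs, dietary compounds, steroids and fatty acids, the last including arachidonic acid and its leukotriene products. UGT enzymes join glucuronic acid, and sulfotransferases a sulfate group, to such compounds, which makes them more soluble and easier to export. In the gut these enzymes sit mainly in the absorptive epithelium, and many of their genes lie in blocks of close copies along a chromosome. Probes of close copies can pick up each other's transcripts, so the values of single genes within the Cyp2a, Cyp2b, Cyp2c, Cyp2d, Cyp3a, Cyp4a, Ugt2b and Sult2a groups are uncertain in that respect.

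Over all genes, 2 of the hBD-2 arrays (1 and 3) were separated from the remaining 6, at -25.2 and -25.4 on the first principal component against 2.45 to 14.9, a component that held 34.6% of the variance. They were the highest arrays in 4 of 9 posterior colon markers, Hoxb13, Hoxd13, Scnn1b and Scnn1g, and not in the other 5. Hoxb13 had 9.06 and 9.32 in them, against 4.73 to 7.22 in the other arrays, whereas Hoxd10 and Hoxd9 lay below hBD-2 2 and hBD-2 4 in them. Of 10 small intestine markers they were lowest in Fabp2, Alpi and Anpep and highest in Fabp6, with Fabp2 at 6.75 and 7.00, against 8.07 to 9.72. Anpep was not particular to them, since all hBD-2 arrays lay below all PBS arrays, as in 3.60% of all genes. Its difference was -0.54, and -0.44 without hBD-2 1 and hBD-2 3. Of 12 colonocyte markers, hBD-2 1 and hBD-2 3 were highest in Car4, Slc26a3 and Slc20a1 and lowest in Ceacam1. For members whose values moved most with these arrays, the difference without them is given as well. All 12 colonocyte and all 8 goblet cell markers lay above log2 7 in mean. Of 10 hepatocyte markers, Tat (mean 9.32) and Serpina1a (mean 7.24) also did, and the other 8, Alb among them at 4.93, did not.

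No gene of the 107 passed an adjusted p of 0.05 in limma, a linear model fitted over all 19505 genes with Benjamini-Hochberg adjustment, where 0.0410% of all genes passed. The values nevertheless lay mostly to one side. The difference was above 0 for 85 of the 107 genes and below 0 for 22, with a median of 0.14, whereas 53.5% of all genes were above 0 and their median was 0.012. With an unadjusted p under 0.05, 25 of the 107 were higher in the hBD-2 mice and 2 were lower, against 5.85% and 5.98% of all genes. All 4 hBD-2 arrays lay above all 4 PBS arrays for 12 genes (2.80% of all genes) and below them for 1 (3.60% of all genes). Many of the 107 genes are close copies whose probes can pick up each other's transcripts, so these counts are not independent. Level matters as well, since 67 of the 107 lay at or below log2 5. Of all genes there, 65.1% were above 0 and 7.02% were higher at an unadjusted p under 0.05. By class, the median difference was 0.14 for P450, 0.18 for Ugt2 and 0.14 for sulfotransferase genes. Without hBD-2 1 and hBD-2 3, 89 genes were above 0, against 55.4% of all genes. In that setting 28 were higher at an unadjusted p under 0.05, against 7.35% of all genes, and 0 were lower, against 5.48%.

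The mean over the 8 arrays exceeded log2 7 for 17 of the 107 genes, 15.9%, whereas 9547 of the 19505 genes did. These were Cyp2d9, Cyp2d12, Cyp2d13, Cyp2d34, Cyp2d40, Cyp2j6, Cyp2s1, Cyp3a13, Cyp4f13, Cyp4f14, Cyp4f16, Cyp4f37, Cyp4f40, Ugt2b34, Sult1b1, Sult1d1 and Sult2b1. Just above the line were Cyp2d12 at 7.06 and Cyp3a13 at 7.19, and just below it Cyp2f2 at 7.00 (rounded) and Cyp2c65 at 6.95. A probe set's level also reflects how well its probes bind, so the line does not order the genes by their amount of RNA. Of the 17, 15 had a difference above 0, with a median of 0.25, and 7 were higher at an unadjusted p under 0.05 with 0 lower, against 3.56% and 7.27% of all genes above log2 7. Of all genes above log2 7, 44.9% had a difference above 0 and the median was -0.015.

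**Figure D1:**
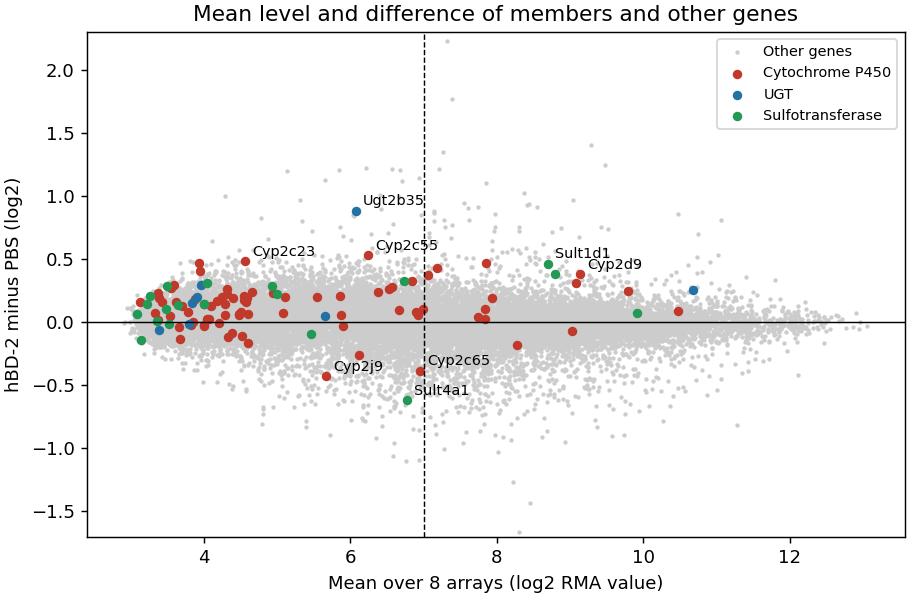
Mean over the 8 arrays (x axis, log2 RMA value) against the difference hBD-2 minus PBS (y axis, log2) for the 107 genes, coloured by class, and for all other named genes in grey. The dashed line marks log2 7, and 85 of the 107 genes lie above a difference of 0.

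At the other end, 67 of the 107 genes had a mean at or below log2 5. Signal over background cannot be read from the deposited values, so whether these genes were expressed in the colon was not tested. They too had a median difference of 0.14, with 53 of 67 above 0. Among all 4759 genes at or below log2 5, 65.1% were above 0 and the median was 0.049. Of the 12 genes with higher, non-overlapping hBD-2 values, 9 belonged to this low range, which held 67 of the 107 genes. Of all genes at or below log2 5, 2.98% were higher without overlap. They were Cyp2a12, Cyp2c23, Cyp4a29, Cyp4a32, Sult1c2, Sult2a1, Sult2a3, Sult2a5 and Ugt2b38. With every value under log2 4 set to 4, the median of the 107 genes was 0.066.

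**Figure D2:**
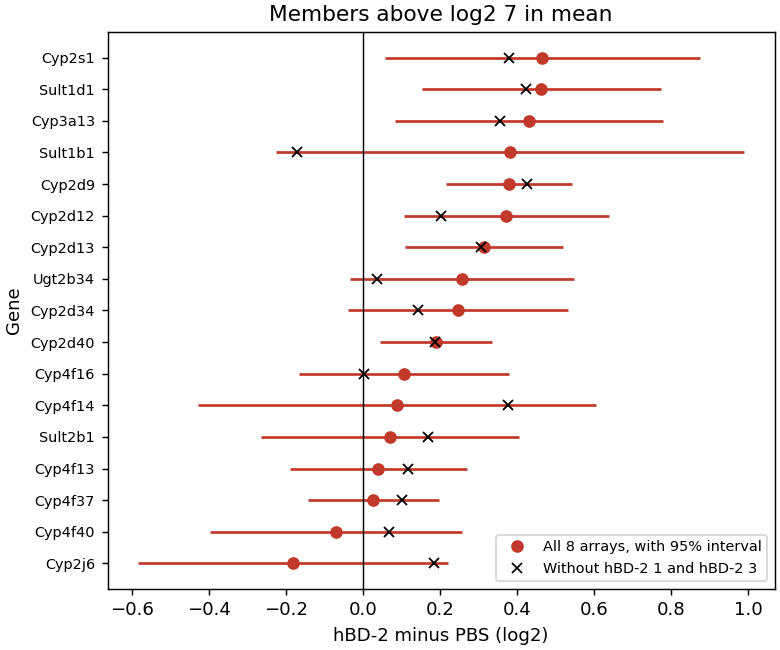
Difference hBD-2 minus PBS (x axis, log2) for the 17 genes above log2 7 in mean, with 95% intervals from limma over all 8 arrays, and crosses for the value without hBD-2 1 and hBD-2 3. The points run from -0.18 for Cyp2j6 to 0.47 for Cyp2s1, and the crosses of Sult1b1, Cyp4f40 and Cyp2j6 lie on the other side of 0 from their points.

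Among the oxidising enzymes, Cyp1a1, Cyp1a2 and Cyp1b1, the classical targets of the aryl hydrocarbon receptor, lay low on every array. Cyp1a1 had 4.41, 3.99, 4.51 and 4.36 in hBD-2 mice, against 4.07, 4.58, 4.21 and 4.16 in PBS mice. Cyp1b1 had 4.74, 4.44, 4.29 and 4.72 in hBD-2 mice, against 4.45, 4.19, 4.37 and 4.86 in PBS mice. The groups overlapped in both, with differences of 0.062 (95% interval -0.24 to 0.36) and 0.083 (95% interval -0.25 to 0.42). Leaving out arrays hBD-2 1 and hBD-2 3 gave -0.080 for Cyp1a1.

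The Cyp2d genes, relatives of the main human debrisoquine-oxidising enzyme, form a block on chromosome 15 and 5 of the 9 exceeded log2 7. The difference was above 0 for 8 of the 9, against 53.5% of all genes, with a median of 0.25. At an unadjusted p under 0.05, 4 were higher, against 5.85% of all genes. Probes of these close copies can pick up each other's transcripts, so the counts are not independent. Cyp2d9 had 9.23, 9.43, 9.33 and 9.31 in hBD-2 mice, against 9.03, 8.89, 8.90 and 8.96 in PBS mice, and the groups did not overlap. Its means were 9.33 ± 0.085 and 8.95 ± 0.066 (SD, n = 4 each), a difference of 0.38 (SE 0.073) or 1.30-fold, with an adjusted p of 0.0979 by limma. Cyp2d9 did pass when limma's prior was made robust and followed intensity (adjusted p = 0.0266), and when only the upper 50% of probe sets were tested (adjusted p = 0.0446). Cyp2d40 had 8.05, 8.05, 8.02 and 8.01 in hBD-2 mice, against 7.80, 7.79, 7.91 and 7.87 in PBS mice. This narrow gap of 0.19 (SE 0.065) again left no overlap between the groups.

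In Cyp2d13, the values were 9.25, 9.08, 9.24 and 9.39 in hBD-2 mice, against 8.86, 8.79, 8.94 and 9.09 in PBS mice, a difference of 0.31. Cyp2d12 had 7.39, 7.27, 7.44 and 6.88 in hBD-2 mice, against 6.96, 6.77, 6.93 and 6.83 in PBS mice. In both genes a single hBD-2 array lay among the PBS arrays, hBD-2 2 for Cyp2d13 and hBD-2 4 for Cyp2d12. The 0.37 of Cyp2d12 became 0.20 without hBD-2 1 and hBD-2 3, which were its highest arrays. Cyp2d34 stood at 0.25 (95% interval -0.038 to 0.53) with overlapping groups, and at 0.14 without that pair. Cyp2d26 was the exception in the block. It had 5.35, 6.94, 5.48 and 6.15 in hBD-2 mice, against 6.69, 6.48, 6.06 and 5.75 in PBS mice, a difference of -0.26 that became 0.30 without hBD-2 1 and hBD-2 3.

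**Figure D3:**
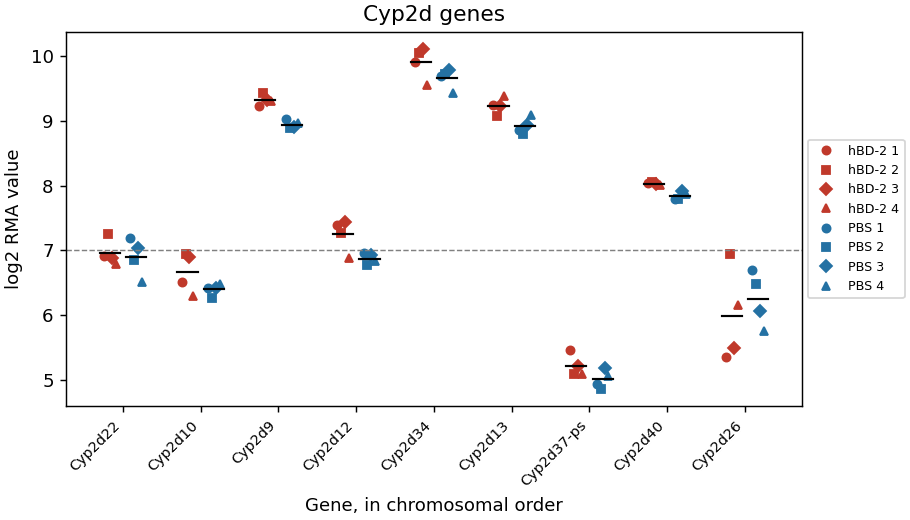
log2 RMA values (y axis) of the 9 Cyp2d genes in chromosomal order (x axis), with a point for each hBD-2 (red) and PBS (blue) array, bars at the group means and a dashed line at log2 7. In Cyp2d9 and Cyp2d40 all 4 hBD-2 points lie above all 4 PBS points.

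The Cyp2c genes on chromosome 19 held the widest spread between mice. Cyp2c55, known in the mouse as an arachidonic acid hydroxylase of the large intestine, and its neighbours Cyp2c65 and Cyp2c66 stand side by side at one end of the block. Cyp2c55 had 4.80, 9.12, 4.89 and 7.20 in hBD-2 mice, against 6.24, 6.65, 6.26 and 4.75 in PBS mice. Its range of 4.37 log2 units was the widest of the 107 genes, and the hBD-2 mice held both the highest and nearly the lowest values. Cyp2c65 had 5.38, 8.32, 5.59 and 7.76 in hBD-2 mice, against 7.45, 7.57, 7.05 and 6.51 in PBS mice. Cyp2c66 had 6.02, 7.04, 6.10 and 6.85 in hBD-2 mice, against 6.52, 6.40, 6.07 and 6.07 in PBS mice. In all 3 genes hBD-2 2 and hBD-2 4 were the highest arrays, and hBD-2 1 and hBD-2 3 lay well below them.

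Over all 8 arrays these genes gave no difference beyond that spread, with Cyp2c55 at 0.53 (95% interval -1.38 to 2.44), Cyp2c65 at -0.38 (95% interval -1.73 to 0.97) and Cyp2c66 at 0.24 (95% interval -0.26 to 0.74). Cyp2c55 stood at -0.34 without hBD-2 2 and at 1.10 without hBD-2 1. Without hBD-2 1 and hBD-2 3 together, Cyp2c55 stood at 2.19, Cyp2c65 at 0.90 and Cyp2c66 at 0.68. In each, hBD-2 2 and hBD-2 4 lay above all PBS arrays. With fewer hBD-2 arrays left such a gap arises more readily, and it was not particular to these 3 genes. Many other members had it too, among them Cyp2b23, Cyp2e1, Cyp3a16, Cyp4b1, Cyp4f37, Cyp4x1, Sult3a1 and Ugt2b36. The share of all genes with such a gap was not counted. The unadjusted limma p without the pair was 0.0048 for Cyp2c55, 0.011 for Cyp2c65 and 0.0014 for Cyp2c66. None passed after adjustment, and Cyp2c66, tied with Cyp2d9, had the lowest adjusted p of the 107 genes there, 0.170. Over all 8 arrays the unadjusted limma p was 0.55, 0.54 and 0.31, in the same order. The pair left out held the low hBD-2 values of these same genes. The lower p-values therefore follow in part from that choice and are not a test of hBD-2. The marker values of the same arrays are given above. Their part in the Cyp2c values was not tested.

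The promoters of the 3 neighbours are shown because the genes lie side by side and shared this pattern, which was not theirs alone. The 250 bases before each gene's start were read from RefSeq (GRCm38.p6), at chr19:39006769-39007018 (plus strand) for Cyp2c55, chr19:39060756-39061005 (plus strand) for Cyp2c65 and chr19:39113648-39113897 (plus strand) for Cyp2c66, written 5′ to 3′ along the gene. Capitals mark matches on either strand to the TATA box TATAAA, the nuclear receptor half-site AGGTCA, the dioxin response core GCGTG, the HNF1 half-site GTTAAT and the HNF4 core CAAAGTCCA.

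Cyp2c55: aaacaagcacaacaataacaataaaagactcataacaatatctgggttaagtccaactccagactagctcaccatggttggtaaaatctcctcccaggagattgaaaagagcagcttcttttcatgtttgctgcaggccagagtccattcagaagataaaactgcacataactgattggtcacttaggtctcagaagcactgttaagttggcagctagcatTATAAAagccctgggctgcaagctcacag

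Cyp2c65: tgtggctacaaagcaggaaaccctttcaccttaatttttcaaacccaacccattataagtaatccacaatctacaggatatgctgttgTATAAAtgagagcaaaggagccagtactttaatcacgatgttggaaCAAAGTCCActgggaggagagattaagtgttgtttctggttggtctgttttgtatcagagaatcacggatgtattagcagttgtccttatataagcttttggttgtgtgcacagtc

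Cyp2c66: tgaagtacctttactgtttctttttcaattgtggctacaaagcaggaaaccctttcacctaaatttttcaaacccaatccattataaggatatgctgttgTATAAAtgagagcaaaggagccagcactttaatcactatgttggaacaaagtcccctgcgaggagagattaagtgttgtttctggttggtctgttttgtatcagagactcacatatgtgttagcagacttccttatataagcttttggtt

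The windows of Cyp2c65 and Cyp2c66 were 87.4% identical over 238 aligned positions, and that of Cyp2c55 was 57.0% identical to Cyp2c65 over 263. These are local alignments with gaps, and the identity of unrelated windows was not measured, so the lower value has no background. Each window shown above holds 1 TATAAA, which starts at position -29 from the gene's start in Cyp2c55, at -162 in Cyp2c65 and at -150 in Cyp2c66. Only exact matches were marked. The windows of Cyp2c65 and Cyp2c66 also hold the similar letters tatataag, unmarked and nearer the gene's start. The HNF4 core is in the window of Cyp2c65 and not in the other windows shown. Of the 107 genes, 85 had at least 1 promoter in the RefSeq table. The HNF4 core was in 10.5% of their 95 windows, all of them Cyp2c (6 genes) or Cyp3a (4 genes), against 0.384% of all 32851 windows. The HNF1 half-site was in 18.9% of the windows, against 6.43% of all, TATAAA in 31.6%, against 12.4%, AGGTCA in 25.3%, against 14.0%, and GCGTG in 15.8%, against 28.2%. No motif contains another, and the windows of close copies resemble each other, so they are not independent. A match describes the letters only.

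Further along the block, Cyp2c23, an arachidonic acid epoxygenase in the mouse kidney, had the lowest p of the 107 genes. It had 4.90, 4.64, 4.77 and 4.94 in hBD-2 mice, against 4.33, 4.30, 4.24 and 4.44 in PBS mice, with no overlap. The difference was 0.49 (SE 0.086) or 1.40-fold, with an adjusted p of 0.0782 by limma, and 0.0378 with array weights. Cyp2c68 was highest in hBD-2 1 and hBD-2 3, with 4.48, 3.87, 4.67 and 3.65 in hBD-2 mice, against 3.81, 3.65, 3.85 and 3.48 in PBS mice. Its 0.47 became 0.30 without hBD-2 3 alone and 0.065 without both. Cyp2c39 stood at 0.27, and none of the 14 Cyp2c genes exceeded log2 7 in mean.

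**Figure D4:**
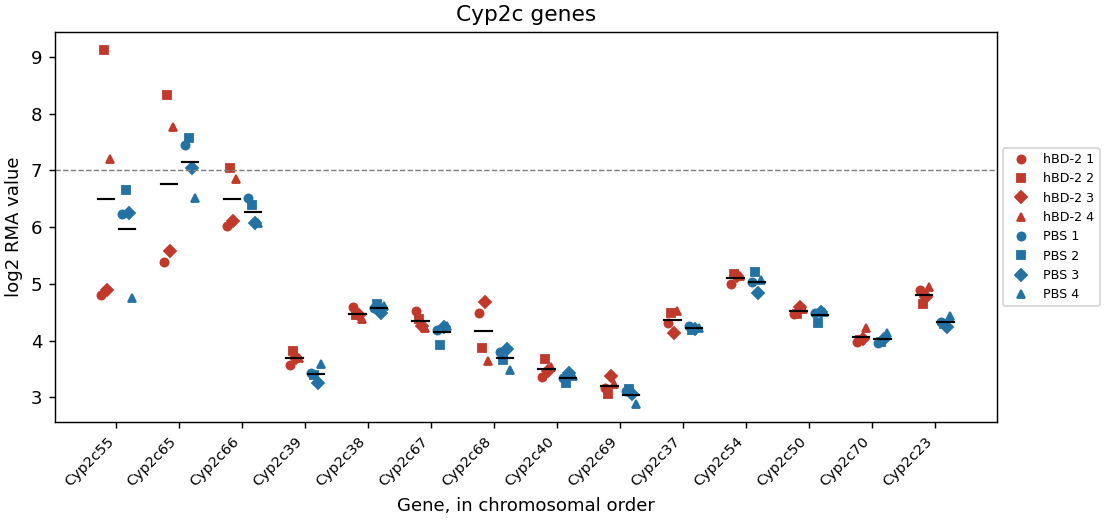
log2 RMA values (y axis) of the 14 Cyp2c genes in chromosomal order (x axis), with a point for each hBD-2 (red) and PBS (blue) array, bars at the group means and a dashed line at log2 7. Cyp2c55, Cyp2c65 and Cyp2c66 spread widely, with hBD-2 2 and hBD-2 4 at the top and hBD-2 1 and hBD-2 3 low.

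Of the other Cyp2 genes, Cyp2s1, a P450 of epithelia that is inducible through the aryl hydrocarbon receptor, had 8.14, 8.10, 8.22 and 7.92 in hBD-2 mice, against 7.68, 7.76, 8.04 and 7.02 in PBS mice. The difference was 0.47 (SE 0.18, adjusted p = 0.357 by limma), and PBS 3 reached into the hBD-2 range while PBS 4 lay lowest. Without PBS 4 the difference was 0.27. Cyp2e1, which oxidises ethanol, had 5.79, 7.91, 7.00 and 7.29 in hBD-2 mice, against 6.82, 6.01, 6.61 and 7.25 in PBS mice, and the groups overlapped. Leaving out hBD-2 2 alone turned the 0.33 of Cyp2e1 into 0.022, and leaving out hBD-2 1 and hBD-2 3 turned it into 0.93.

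The Cyp2j genes, which include arachidonic acid epoxygenases, were the group with a median difference below 0 (-0.021) among those with at least 5 genes. Cyp2j9 had 5.28, 5.51, 5.13 and 5.88 in hBD-2 mice, against 5.91, 6.08, 5.92 and 5.61 in PBS mice. Cyp2j6 had 7.86, 8.67, 7.77 and 8.42 in hBD-2 mice, against 8.38, 8.32, 8.28 and 8.46 in PBS mice. In both, hBD-2 1 and hBD-2 3 were the lowest arrays. Without them Cyp2j9 stood at -0.18 rather than -0.43, and Cyp2j6 at 0.18 rather than -0.18. The 4 Cyp2a genes all had differences above 0, with Cyp2a12 at 0.26, Cyp2a4 at 0.23 and Cyp2a22 at 0.21. They lay at or below log2 5, where 65.1% of all genes were above 0. Without hBD-2 1 and hBD-2 3, its highest arrays, Cyp2a4 was at 0.12. Cyp2w1 stood at 0.21, whereas the 5 Cyp2b genes had a median of 0.0024.

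Cyp3a13 was the only one of the 9 Cyp3a genes above log2 7, and in the mouse it is a Cyp3a enzyme of the intestine. It had 7.54, 7.51, 7.42 and 7.14 in hBD-2 mice, against 7.25, 7.03, 7.10 and 6.50 in PBS mice. The difference was 0.43 (SE 0.16, adjusted p = 0.330 by limma), with hBD-2 4 below PBS 1 and PBS 4 the lowest. Without PBS 4 it stood at 0.27. Cyp3a25 was at 0.23, and both were higher at an unadjusted p under 0.05. Leaving out arrays hBD-2 1 and hBD-2 3 gave 0.34 for Cyp3a25.

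The Cyp4 enzymes hydroxylate the end of fatty acid chains, and several Cyp4f enzymes act on leukotriene B4. Of the 10 Cyp4f genes, 5 exceeded log2 7, and their median difference was 0.073. Cyp4f14 had 10.24, 11.01, 10.22 and 10.60 in hBD-2 mice, against 10.58, 10.84, 10.49 and 9.80 in PBS mice. The groups overlapped, with a difference of 0.089 (95% interval -0.43 to 0.61) that became 0.38 when arrays hBD-2 1 and hBD-2 3 were left out. Cyp4f13 at 0.040, Cyp4f16 at 0.11, Cyp4f37 at 0.028 and Cyp4f40 at -0.069 also overlapped. Cyp4f15, below log2 5, stood at 0.19 with an unadjusted p of 0.032. Cyp4b1 stood at 0.28, and at 0.49 without hBD-2 1 and hBD-2 3. Of the 8 Cyp4a genes, fatty acid hydroxylases of liver and kidney, none had a mean above log2 5. Cyp4a29 had 4.14, 4.05, 4.00 and 4.44 in hBD-2 mice, against 3.72, 3.58, 3.80 and 3.90 in PBS mice, and Cyp4a32 was at 0.23.

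Among the conjugating enzymes, 8 Ugt2 genes and the genes Sult1b1, Sult1d1 and Sult1e1 lie in 1 run on chromosome 5. Ugt2b35 had the largest difference of the 107 genes, 0.88 (SE 0.35) or 1.84-fold, with an adjusted p of 0.357 by limma. It had 6.95, 6.16, 7.47 and 5.48 in hBD-2 mice, against 5.61, 5.42, 5.72 and 5.79 in PBS mice. The hBD-2 mice spread far wider than the PBS mice (SD 0.875 and 0.163), with hBD-2 1 and hBD-2 3 the highest arrays and hBD-2 4 among the PBS mice. The difference was 0.56 without hBD-2 3 alone and 0.19 without the pair. Ugt2b34, the Ugt2 gene above log2 7, had 11.03, 10.64, 11.03 and 10.54 in hBD-2 mice, against 10.55, 10.63, 10.70 and 10.34 in PBS mice. Its 0.26 became 0.037 without the pair. Ugt2b38, at a mean of 3.96, was at 0.30 without overlap between groups.

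Sult1b1, which sulfates phenols and thyroid hormone, also had hBD-2 1 and hBD-2 3 as its highest arrays. It had 9.42, 8.71, 9.67 and 8.17 in hBD-2 mice, against 8.47, 8.67, 8.73 and 8.57 in PBS mice. Its 0.38 became -0.17 without hBD-2 1 and hBD-2 3. Its neighbour Sult1d1, which in the mouse sulfates catecholamines, differed in that respect. It had 8.87, 9.14, 9.07 and 8.64 in hBD-2 mice, against 8.62, 8.48, 8.64 and 8.13 in PBS mice, with hBD-2 4 only just above PBS 3. The difference was 0.46 (SE 0.14) or 1.38-fold, with an adjusted p of 0.242 by limma, and it was 0.42 without the pair.

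**Figure D5:**
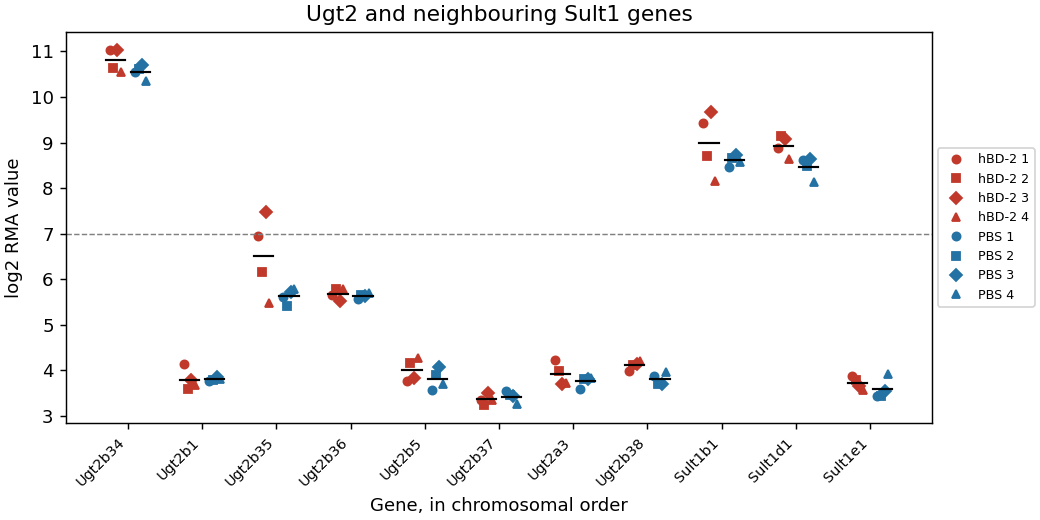
log2 RMA values (y axis) of the 8 Ugt2 genes and their neighbours Sult1b1, Sult1d1 and Sult1e1 in chromosomal order (x axis), with a point for each hBD-2 (red) and PBS (blue) array, bars at the group means and a dashed line at log2 7. The points of hBD-2 1 and hBD-2 3 lie highest in Ugt2b34, Ugt2b35 and Sult1b1.

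The promoter window of Ugt2b35 is shown as that of the gene with the largest difference, and the window of Cyp2d9 as that of the gene above log2 7 with the lowest p. They lie at chr5:87000610-87000859 (plus strand) and chr15:82452127-82452376 (plus strand) of the same build, with capitals as above.

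Ugt2b35: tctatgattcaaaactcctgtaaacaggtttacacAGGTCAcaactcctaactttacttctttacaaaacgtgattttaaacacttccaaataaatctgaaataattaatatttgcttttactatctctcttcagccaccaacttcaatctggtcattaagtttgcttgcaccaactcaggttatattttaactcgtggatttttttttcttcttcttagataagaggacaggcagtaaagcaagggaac

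Cyp2d9: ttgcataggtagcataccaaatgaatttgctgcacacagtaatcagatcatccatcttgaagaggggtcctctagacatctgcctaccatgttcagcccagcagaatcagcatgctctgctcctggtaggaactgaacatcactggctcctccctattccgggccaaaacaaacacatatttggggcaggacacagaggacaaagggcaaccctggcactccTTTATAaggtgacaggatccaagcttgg

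The window of Ugt2b35 holds 1 AGGTCA, and that of Cyp2d9 holds 1 TATAAA on the opposite strand, written TTTATA here.

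Of the remaining sulfotransferases, the phenol sulfotransferase Sult1a1 stood at 0.33 (95% interval -0.045 to 0.70), and at 0.060 without hBD-2 1 and hBD-2 3. Sult2b1, which sulfates cholesterol, stood at 0.072 (95% interval -0.26 to 0.41), at a mean of 9.91. Sult1c2 had 5.13, 4.90, 5.07 and 5.20 in hBD-2 mice, against 4.89, 4.68, 4.78 and 4.78 in PBS mice, a gap with no overlap that was only just open between hBD-2 2 and PBS 1. The 8 Sult2a genes, enzymes of bile acid and steroid sulfation in liver, lay at or below log2 5. Of the 8 differences 7 were above 0, against 65.1% of all genes at or below log2 5. Sult2a5 was at 0.31, Sult2a1 at 0.23 and Sult2a3 at 0.21. Sult1c1, beside Sult1c2, was at 0.29, at 0.18 without hBD-2 2 and at 0.43 without the pair hBD-2 1 and hBD-2 3. Sult4a1, a sulfotransferase of neurons, was the gene with the lowest difference. It had 6.03, 6.82, 6.13 and 6.90 in hBD-2 mice, against 7.30, 7.23, 6.98 and 6.83 in PBS mice. Its -0.62 (SE 0.20, adjusted p = 0.276 by limma) became -0.23 without the pair, whose arrays were its lowest. Sult3a2 was at -0.14 with all hBD-2 values below all PBS values, at a mean of 3.14.

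Across the 107 genes, hBD-2 1 and hBD-2 3 were together the highest arrays for 9 and the lowest for 5, against 6.41% and 8.06% of all genes. The 9 were Cyp2a4, Cyp2c68, Cyp2d12, Cyp2d37-ps, Cyp2s1, Sult1a1, Sult1b1, Ugt2b34 and Ugt2b35. The 5 were Cyp2c65, Cyp2d26, Cyp2j6, Cyp2j9 and Sult4a1. Either extreme held for 14 of the 107 genes, a share near the 14.5% of all genes. Among the 17 genes above log2 7 in mean it held for 5, or 29.4%. In 4 of these the pair was highest and in 1 lowest. The share among all genes above log2 7 was not counted.

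Genes that regulate or serve these enzymes were described from 7 lists, in which no gene passed an adjusted p of 0.05. Of 16 receptors and regulators, 1 was higher and 2 were lower at an unadjusted p under 0.05, with a median difference of -0.0021, against 5.85% and 5.98% of all genes, a background that holds for each list below. Hnf4g, a nuclear receptor of the gut epithelium, had 9.13, 9.22, 9.13 and 8.98 in hBD-2 mice, against 8.72, 8.41, 8.90 and 8.65 in PBS mice. The groups did not overlap, and the difference was 0.45 (SE 0.11, adjusted p = 0.160 by limma). The aryl hydrocarbon receptor Ahr had 7.24, 7.11, 7.24 and 6.96 in hBD-2 mice, against 7.43, 7.42, 7.41 and 7.32 in PBS mice, all lower, with a difference of -0.26 (SE 0.082, adjusted p = 0.260 by limma). Tiparp, a target and repressor of that receptor, was at -0.28. The xenobiotic receptor Nr1i3 stood at 0.15 without overlap.

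None of 10 genes of electron supply and haem turnover had an unadjusted p under 0.05, with Cyb5r1 at -0.14 and Hmox1 at -0.11. Of 20 P450 genes outside the symbol rule 2 were higher, Cyp39a1, an oxysterol hydroxylase, at 0.32 and Cyp21a1 at 0.29, both without overlap. Cyp21a1 was at 0.17 without PBS 2. Of 8 genes of UDP-glucuronic acid supply, glucuronide removal and Ugt families outside the symbol rule, none had an unadjusted p under 0.05. Ugdh, which makes UDP-glucuronic acid, was at 0.24 (0.12 without PBS 4), and Ugt8a, of another Ugt family, at -0.11. Of 11 genes of sulfate supply, the sulfate transporter Slc26a2 was at 0.33 and Sult6b1 at -0.25. Of 14 export and uptake genes, the efflux pump Abcg2 was at 0.33 and the prostaglandin transporter Slco2a1 at 0.30, and Slco3a1 was at -0.39. Among 19 other oxidising and hydrolysing enzymes, the carboxylesterase Ces2e was at 0.51, the carbonyl reductase Cbr1 at 0.25 and the epoxide hydrolase Ephx1 at -0.27, and Fmo4 and Fmo5 stood at 0.16 and 0.17 without overlap. Without hBD-2 1 and hBD-2 3, Slc26a2 stood at 0.15, Abcg2 at 0.15, Cbr1 at 0.12 and Ugdh at 0.38.

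Markers of other cell types moved beside these values. Of 9 fibroblast markers 8 were lower at an unadjusted p under 0.05, of 13 monocyte and macrophage markers 9, and of 8 endothelial markers 5, with none higher. The log2 of their summed linear values ran from 12.8 to 13.2 in hBD-2 mice, against 13.4 to 13.5 in PBS mice, for fibroblasts. For macrophages it ran from 11.9 to 12.3 in hBD-2 mice, against 12.5 to 12.8 in PBS mice. For endothelium it ran from 9.88 to 10.41 in hBD-2 mice, against 10.43 to 10.59 in PBS mice, a narrow gap. For the 12 colonocyte markers, of which 2 were higher, the groups overlapped. Their summed value ran from 15.369 to 15.465 in hBD-2 mice, against 15.251 to 15.41 in PBS mice. The 2 higher markers were Car4 and Slc26a3, at 0.39 and 0.33, which became 0.24 and 0.18 when arrays hBD-2 1 and hBD-2 3 were left out. For the 9 posterior colon markers the summed value ran from 9.16 to 10.5 in hBD-2 mice, against 9.18 to 9.47 in PBS mice, with 1 higher. At the same unadjusted p, 3 of 8 T cell and 1 of 8 smooth muscle markers were lower, and 1 of 8 goblet, 2 of 10 hepatocyte and 1 of 5 pancreatic acinar markers were higher. Of 10 small intestine markers 1 was higher and 1 lower. Over all genes 5.85% were higher and 5.98% lower at that p, a background for all marker counts here. In whole tissue, fewer cells of a type and less RNA per cell cannot be told apart, and the part of these markers in the values of the P450, Ugt and Sult genes was not tested.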

How the data were processed

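Whole-colon RNA from 8 mice was measured on 1 array each, and groups and replicate numbers come from the sample titles. The deposited table holds log2 values of 22203 probe sets, which the authors made with the R package oligo and RMA, per the submitters' processing notes. RMA forces all arrays to 1 distribution, so a global shift would not be visible, and array medians lay between 6.77 and 6.82. Versions of oligo and the array's genome build are not stated in the sources used.

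Of the probe sets, 19572 carry 1 gene symbol in GEO's platform annotation, 0 carry several and 2631 carry none. The probe set with the highest mean was kept for each gene, and no filter on low values was used. limma 3.58.1 in R 4.3.3 was fitted to all 19505 genes (lmFit, eBayes, two-sided, Benjamini-Hochberg), with moderated standard errors and 95% intervals, and was tested on simulated data. The labels give no batch, and p-values measure the spread between these mice. Alternatives covered normalization, low-value filters, weights, the replicate block and left-out arrays. Members, lists, tests and the naming rule were chosen with earlier results of these data known. The rule named every gene above log2 7, those nearest that line, those with an unadjusted p under 0.05 or groups without overlap, the 5 with the widest range, 13 genes listed by symbol, and from each pathway list the same kind or its 2 lowest p. Genes further named for their position or array pattern, such as Cyp2c66, Cyp1a2, Sult1e1 and Cyp2d37-ps, were chosen after their values were seen.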

Additional observations from a re-analysis of the deposited data

Results flagged for a closer look

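In 5 of 134 groups of 4 arrays, over the 67 named genes, 1 array lay far from the other arrays of its group, where chance gives about 1 in 20 groups. Cyp4f40 was at 9.43 in hBD-2 2, against 8.81 to 8.90 in the other hBD-2 arrays. Nr1i3 was at 6.17 in hBD-2 4, against 5.95 to 5.99 in the other hBD-2 arrays. PBS 4 was lowest in Sult1a1, at 6.27 against 6.64 to 6.69 in the other PBS arrays, and in Sult2b1, at 9.42 against 9.97 to 10.08. Cyp21a1 was at 3.94 in PBS 2, against 4.41 to 4.47 in the other PBS arrays.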

How the results depend on the processing

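The number of the 107 genes past an adjusted p of 0.05 was 0 in limma, and 0 without any single array. It was 1 with an intensity trend and robust prior (Cyp2d9), 1 with array weights (Cyp2c23), 1 without the lowest 50% of probe sets (Cyp2d9), and 2 at a threshold of 0.1. Over all genes the 8 became 91 with the trend and robust prior, 68 with array weights, 16 and 46 without the lowest 25% and 50%, 4 with quantile normalization repeated, and 0 with values under log2 4 set to 4, without hBD-2 1 and hBD-2 3, or with the replicate block. Without single arrays it ran from 0 to 11. The median difference of the 107 genes was 0.10 to 0.18 without single arrays, 0.20 without the lowest 25% (43 genes left) and 0.066 with the minimum of log2 4. The count above log2 7 was 17 to 19 without single arrays, 31 above log2 6 and 10 above log2 8.

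Counts at an unadjusted p under 0.05 under each setting were added after the data were seen, and ran from 18 to 30 higher and 1 to 4 lower without single arrays, with 15 higher and 1 lower at the minimum of log2 4 and 5 lower with quantile normalization repeated. Without hBD-2 1 and hBD-2 3, the sign turned for Cyp1a1 (-0.080), Cyp2c65 (0.90), Cyp2d26 (0.30), Cyp2j6 (0.18), Cyp4f40 (0.070) and Sult1b1 (-0.17). With array weights it turned for Cyp2c55 (-0.045), Cyp4f14 (-0.066), Cyp4f37 (-5.5e-05) and Sult2b1 (-0.022). Without single arrays the sign turned for 9 named genes. Cyp1a1 ran from -0.0015 to 0.17, Cyp1b1 from -0.0078 to 0.21, Cyp2c55 from -0.34 to 1.10, Cyp2c65 from -0.90 to 0.078, Cyp4f13 from -0.028 to 0.10, Cyp4f14 from -0.12 to 0.23, Cyp4f16 from -0.010 to 0.16, Cyp4f37 from -0.0036 to 0.056 and Sult2b1 from -0.081 to 0.14. The cause was not tested. Mice with the same replicate number had deviations from the group means that correlated at -0.15, 0.14, 0.24 and 0.045 across genes. Other pairs of an hBD-2 and a PBS mouse ran from -0.25 to 0.20. The replicate block called 0 of the 107 genes. With it 30 of them were higher at an unadjusted p under 0.05, against 25 without it, and 2566 of all genes had such a p, against 2309. Whether mice with the same number shared a batch was not tested.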
